A study of Oryza sativa Indica Group with 17 samples.

Results

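On the array of the rice mutant line D1137, 765 of 57194 probe sets (1.34% of the array, with a 95% exact Clopper-Pearson interval of 1.25 to 1.44%) lost signal in at least 0.5 of their probes while staying below 0.5 in each of the other 16 arrays. These probe sets, called members here, are the subject of the report. They were chosen by their values in D1137 and by the upper bound elsewhere, so their D1137 shares are a description and carry no test. Intervals cover counting error only, and no line had a second array.

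The line D1137 came from the indica variety IR64 by diepoxybutane (DEB) treatment. DEB is an alkylating agent that joins DNA strands and is known for base changes and small deletions. By the methods, D1137 is an allele of spl1, the Sekiguchi lesion gene, with the lines D2943, G650 and F1856, as judged by complementation. Plants with this mutation form spreading orange lesions on their leaves without a pathogen, and the gene encodes CYP71P1, a cytochrome P450 that hydroxylates tryptamine to serotonin. Genomic DNA from leaves of greenhouse plants aged 45 days was labelled and hybridized to 1 Rice GeneChip per line. Each probe set of this chip usually holds 11 oligonucleotides of 1 transcript or gene model. A probe binds less labelled DNA when its target is missing or changed in sequence, so the share of flagged probes, from 0 to 1, measures how much of a probe set lost signal against wild type IR64.

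The other arrays held 15 mutant lines and a wild type check of untreated IR64. The DEB label was also given to D256, D2943 and the dwarf line d1, which the methods describe as a gamma ray mutant. Gamma ray lines were G282, G650, G6485, G6489, G6603, G6686, G6728, G7534, G9799 and G6989, and fast neutron lines were F1856 and F2045. G9799 and F2045 showed the spl1 phenotype but had not been tested by complementation. D1137 and G6989 are not among the mutants for which the paper counts predicted deletions, and the reason is not given there. The paper also states that DEB mutations, being small, were not reliably detected on these arrays. All mutant lines carried the IR64 background and had been advanced by single seed descent before DNA extraction. All shares were set against the same wild type signals, so the arrays are not independent of each other. Arrays differed in their mean share over all probe sets, which was 0.0500 in D1137, 0.00684 in F1856, 0.0745 in the wild type check, 0.108 in G282 and 0.176 in G6989, and the last 2 stood above the rest.

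In all, 824 probe sets (1.44%) reached 0.5 in D1137, and the members made up 92.8% of them. The remaining 59 were called in at least 1 other array. They included 43 of the 1461 sets called in G6989, 10 of the 990 in G282 and 7 of the 8 in D2943. None of the 59 was called in the wild type check, where only 11 sets of the whole array were called. By the same rule, 1127 probe sets (1.97%) were low only in G6989, 594 (1.04%) only in G282, 48 (0.0839%) only in d1 and 0 only in D2943. Of the 54539 sets below 0.5 in all arrays other than D1137, the members made up 1.4%.

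Most members sat close to the threshold. Of the 759 members with 11 probes, 356 had 6 probes flagged in D1137, 230 had 7, 120 had 8, 39 had 9, 8 had 10 and 6 had all 11. The median share was 0.636. With a threshold of 0.4 or 0.6 in place of 0.5 in the rule, 1289 or 435 sets met it. Just outside the rule lay 632 probe sets with 5 of 11 probes flagged in D1137 and less than 0.5 in the other arrays. On the other side of the rule, 60 members reached 5 of 11 probes in some other array, and 19 were at 0 in all 16. The highest share of a member outside D1137 had a median of 0.182, which is 2 of 11 probes.

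The members with the highest D1137 shares included both annotated genes and gene predictions with no paired gene. Every probe of Os.10525.1.S1_at, paired with LOC4348259 on chromosome 10, was flagged in D1137. In the other arrays that set had a lowest share of 0, a median of 0.182 and a highest share of 0.455, in G282. It was thus fully flagged in D1137 and partly flagged in most other arrays. The set Os.9913.1.S1_at of LOC4337129 on chromosome 4 showed the opposite background, with 0.875 in D1137 and 0 in all other arrays. The set of LOC9271916 on chromosome 3 had 0.909 in D1137, a median of 0 elsewhere and a highest other share of 0.273, in D2943. LOC4330036 and LOC4329278, both on chromosome 2, had 0.909 in D1137, medians of 0.0909 elsewhere and highest other shares of 0.182 and 0.273. The D1137 share of each of these sets lay more than 0.5 above its highest share in any other array. The genes LOC4345185, LOC4347725, LOC4331658, LOC4327666 and LOC4343334, had 0.818 in D1137 and at most 0.182 in any other array.

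Some members belonged to genes of hormone and stress responses. The set Os.9923.1.S1_s_at of JAZ10, a repressor of jasmonate signalling, had 0.909 in D1137 and a median of 0 elsewhere, with 0.455 in G282 and 0.364 in G6989. RAB21, a dehydrin gene known to respond to abscisic acid, had 2 member sets, at 0.9 and 0.727 in D1137. The first of these had a median of 0.2 and a highest share of 0.4 in the other arrays, and the second a median of 0.0909 and a highest share of 0.273. The rule itself places D1137 above the other arrays in both sets, which differed in how much signal was lost elsewhere. The stress-associated protein genes, which encode small zinc finger proteins, were represented by SAP14 with 0.727, SAP2 with 0.636 and SAP5 with 0.636 and 0.545. Their highest other shares were 0.182 for SAP14, 0.0909 for SAP2, and 0.0909 and 0 for the SAP5 sets. BKI1, whose Arabidopsis counterpart inhibits the brassinosteroid receptor kinase, had 0.727 in D1137 and 0 to 0.273 elsewhere. ILL8, named as an auxin conjugate hydrolase, had 0.727 in D1137 and 0.455 in G6989, the highest of the other arrays.

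Other named members encoded transporters and small redox or zinc finger proteins. COPT3, a copper transporter gene of 634 bp, had 0.727 in D1137, a median of 0 elsewhere and a highest other share of 0.0909. The sugar transporter gene SWEET1a had 0.727 in D1137, a median of 0.136 elsewhere and a highest other share of 0.364, in G6989. GRXC10, a glutaredoxin gene of 591 bp, had 0.727 in D1137 and up to 0.364 elsewhere. MIF1, a mini zinc finger gene of 742 bp, had 0.727 in D1137, 0.273 in D2943 and 0.182 in G650. COPT3 and SWEET1a thus had the same D1137 share over different backgrounds. GER4 had 0.727 in D1137, with 0.455 in G6989 and 0.364 in G282. ADIPOR1 had 2 member sets out of 3, at 0.636 and 0.545 with at most 0.0909 elsewhere. Its remaining set was also at 0.545 or more in D1137 but reached 0.5 in some other array, so it was not a member.

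Members with no paired gene reached equally high shares. All probes were flagged in D1137 for Os.4773.1.S1_at, OsAffx.30146.3.S1_at, OsAffx.30538.1.S1_x_at, OsAffx.8730.1.S1_at and OsAffx.6610.1.A1_at. Their highest shares in the other arrays were 0.273 for the first 4 and 0.364 for the last. OsAffx.17366.1.S1_at had 0.909 in D1137 and at most 0.0909 elsewhere. These sets were picked for their high D1137 shares, and the rule bounds the other arrays, so their distance from the other arrays is no separate result.

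**Figure D1:**
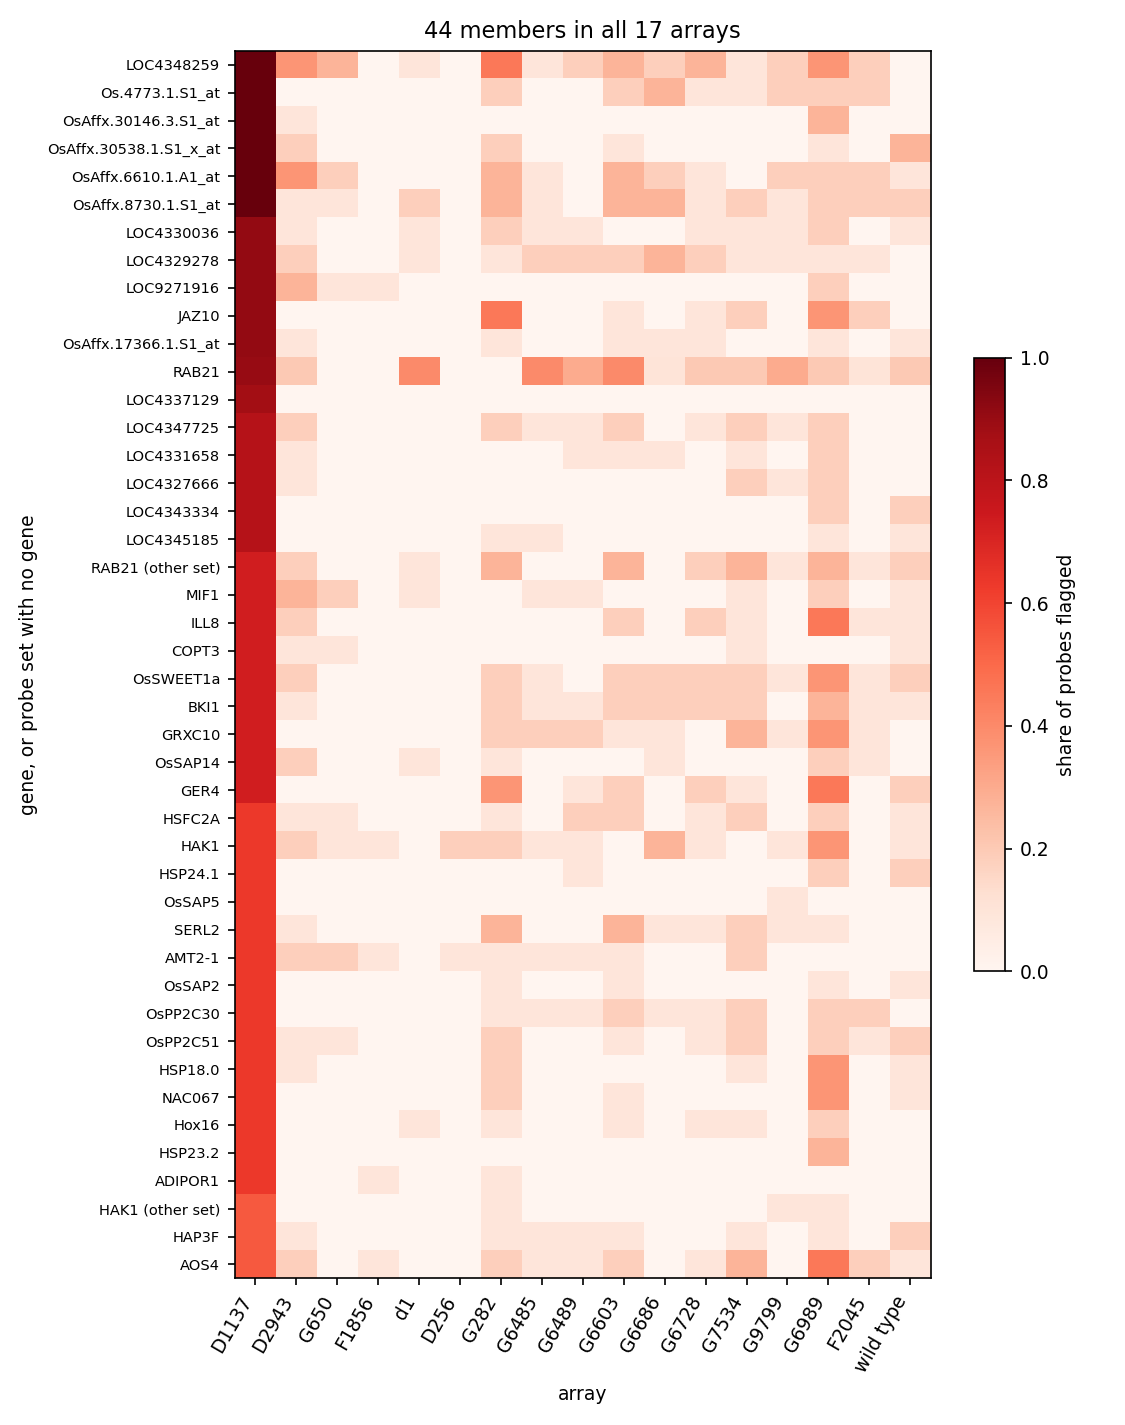
Share of probes flagged (colour, from 0 to 1) for 44 named members (rows) in all 17 arrays (columns), with D1137 at the left and rows ordered by the D1137 share. D1137 is the darkest cell of every row, because the rule set it so, and G6989 and G282 hold most of the darker cells elsewhere, as in the 0.455 of GER4 and JAZ10.

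The spl1 gene was not a member. The sets of CYP71P1 had 0.182 each in D1137 and 0 each in D2943, while G650 and F1856 both had 0.636 in one set and 0.727 in the other. G9799 had 0.636 in both sets, and F2045 had 0.545 and 0.727. The D1137 shares were not above those of G6989 (0.182 and 0.273), and the wild type check had 0.0909 and 0.182. By sequencing, the paper found single nucleotide changes in its spl1 candidate gene in D1137 and D2943, predicted to alter amino acids.

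By their names, the members resembled the array as a whole. Names that begin with Os. mark sets designed from transcript clusters, and names that begin with OsAffx mark sets designed from gene predictions. OsAffx names made up 327 of 765 members, or 42.7% (39.2 to 46.3%), against 44.6% of all probe sets. The same share was 22.4% among sets low only in G6989, 29.8% in G282 and 85.4% in d1. Within the classes, 1.38% of the Os. sets and 1.28% of the OsAffx sets were members. The D1137 members were thus spread over both name classes at nearly the rate of the array, whereas the percentages in G6989, G282 and d1 lay outside the members' interval.

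The suffix of a name says how specific the probes are. Plain _at sets, whose probes match 1 transcript, made up 80.0% of the members and 80.1% of the array. Sets ending in _s_at, whose probes are shared by several transcripts, made up 6.41% of the members (4.78 to 8.38%) and 4.92% of the array. Sets ending in _x_at, in which some probes match other sequences, made up 11.9% of the members and 12.5% of the array. Sets ending in _a_at, for transcripts of the same gene, made up 1.70% and 2.46%. The array's value lay inside the counting interval for all 4 suffixes.

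Of the members, 355 (46.4%, 42.8 to 50.01%) were paired with exactly 1 gene, against 39.2% of all sets, and 410 with none. Among all 22436 paired sets, 1.58% were members, against 1.18% of the others. This difference depended on the bound set for the other arrays. The paired percentage was 42.8% with the wild type check subtracted, 42.3% with the other arrays below 0.3, and 10.5% for the 19 members at 0 elsewhere, which is below the array's value. The paired members belonged to 343 genes, 1.92% of the 17903 nuclear genes measured, and 51 of these genes had a name other than a locus number.

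The clearest property of the paired members was the length of their genes. Gene length here spans the whole gene, introns included, in the japonica reference. The 343 genes had a median length of 1748 bp, with quartiles of 1069 and 3412.5 bp, against a median of 3526 bp over all 17905 genes paired with a set. Genes under 2000 bp made up 56.6% of the members' genes and 21.3% of all genes. Genes with a set low only in G6989 or G282 had medians of 4100 and 4542 bp, longer than the array's. In D1137 the genes of the sets just outside the rule, at 5 of 11 probes, had a median of 1862 bp, and genes with a set at 0 had a median of 3801 bp. Among members, the median was 1982.5 bp at 6 probes flagged, 1444 bp at 7, 1688 bp at 8 and 1801.5 bp for shares of 0.8 or more. Short genes were thus over-represented at every step, with no steady fall in length from step to step.

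The percentage of paired sets that were members fell with gene length. It was 7.26% for genes under 1000 bp (77 of 1061 sets, 5.77 to 8.99%), 4.85% from 1000 bp, 2.34% from 1500 bp and 1.27% from 2000 bp. From 3000 bp it was 0.771%, from 4000 bp 0.888%, and at 6000 bp or more it was 0.606% (27 of 4453 sets, 0.3999 to 0.881%). The intervals of the shortest and the longest class did not overlap. The same percentages ran the other way for G6989, from 1.79% in the shortest class to 4.0% in the longest, and for G282, from 0.943 to 1.98%.

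**Figure D2:**
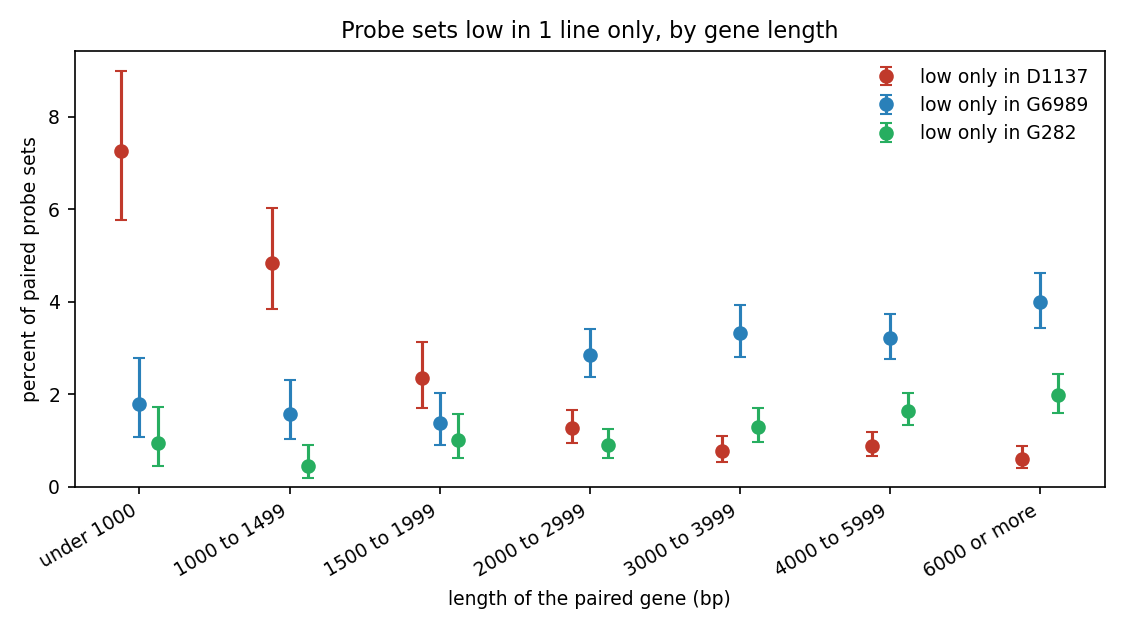
Percentage of paired probe sets (vertical axis) that were low only in D1137, only in G6989 or only in G282, by length class of the paired gene in bp (horizontal axis). Points are percentages and bars are 95% exact Clopper-Pearson intervals. D1137 falls from 7.26 to 0.606%, while G6989 and G282 end higher than they start.

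The relation to length reached beyond the members. The mean D1137 share over all paired sets was 0.138 for genes under 1000 bp and 0.0283 for genes of 6000 bp or more, a ratio of 4.86. With the members left out the means were still 0.0991 and 0.0248. The corresponding ratio over all paired sets was 2.57 in G650 and 1.38 in D2943, and 0.435 to 0.978 in the other 14 arrays, among them 0.978 in the wild type check. D1137, G650 and D2943 were the arrays with a higher mean share in the shortest class. The 2 means behind the G650 ratio were low, 0.00917 and 0.00357. In D2943 the mean did not fall throughout, with 0.0326 in the shortest class, 0.0202 from 3000 bp and 0.0236 in the longest class. By gene, 5.08% of nuclear genes under 2000 bp and 1.06% of longer genes had a member set. The percentage was higher for the short genes on all 12 chromosomes, by a factor of 3.04 (chromosome 4) to 10.2 (chromosome 11).

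The members' shares in the other 16 arrays, which the rule only bounds from above, were not alike. As a background, 53774 probe sets stayed below 0.5 in all 17 arrays. The members had a mean share of 0.0838 in D2943 against 0.0166 for the background, a ratio of 5.04. In G650 the means were 0.0443 and 0.00290, a ratio of 15.2, and in F1856 they were 0.0138 and 0.00587, a ratio of 2.35. In the remaining 13 arrays the ratio lay between 0.856, in the wild type check, and 1.22, in G6485. D256, a further line labelled DEB, had a ratio of 1.01, and the untested spl1-like lines G9799 and F2045 had 1.07 and 1.03. The arrays with a ratio above 2 were therefore those of the 3 lines that the methods place in 1 complementation group with D1137. This grouping was noticed after the values were seen. Hybridization dates were not used here, and whether these 4 arrays shared a batch was not tested. G650 and F1856 had the lowest background means of the 16 arrays, at which a small difference gives a large ratio. The means of members and background lay further apart in G6989 (0.189 and 0.163) and G7534 (0.0581 and 0.0494) than in F1856.

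**Figure D3:**
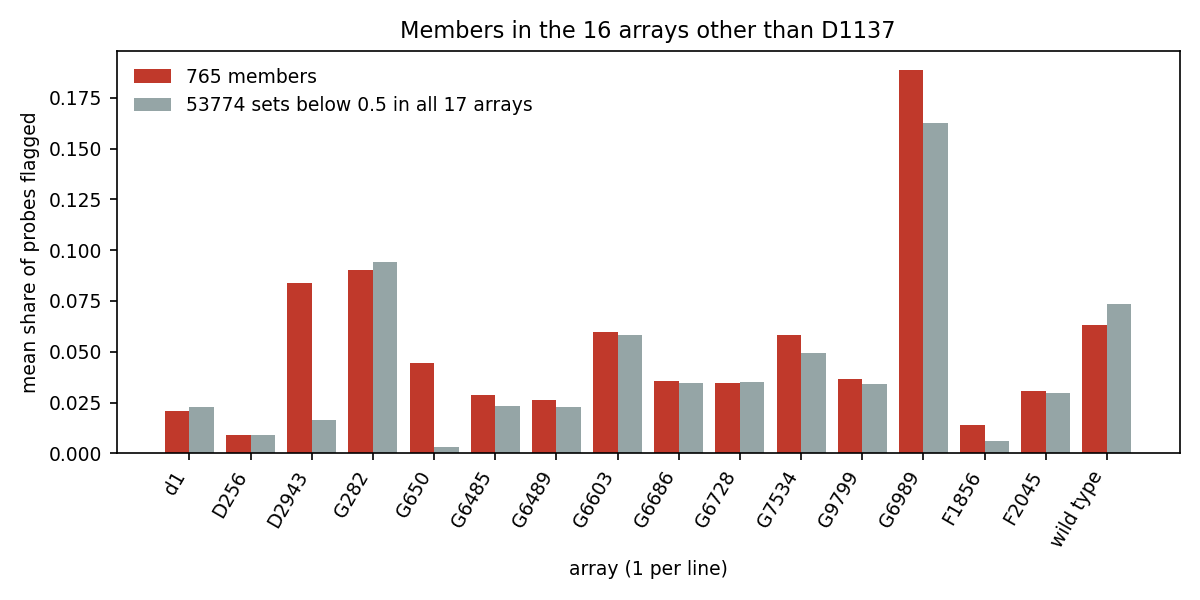
Mean share of probes flagged (vertical axis) over the 765 members and over the 53774 sets below 0.5 in all arrays, for each of the 16 arrays other than D1137 (horizontal axis, 1 array per line, no error bar because there is no replicate). The bars differ most in D2943 (0.0838 and 0.0166) and in G650 (0.0443 and 0.00290), and G6989 and G282 are high in both.

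The difference concerned many members with few probes each. In D2943, 404 members (52.8%) had at least 1 probe flagged, against 15.9% of the background sets. In G650 it was 215 members (28.1%) against 2.68%, and in F1856 it was 92 members (12.03%) against 5.92%. The median member share was 0.0909 in D2943, 1 probe of 11, and 0 in G650 and F1856. More than 0.5 of the members were thus at 0 in G650 and F1856, and fewer in D2943. Shares of at least 0.25 were seen for 74 members in D2943 (9.67%, against 0.270% of the background sets) and 41 in G650 (5.36% against 0.119%). More members reached this share in G6989, 277 (36.2% against 28.9% of the background sets), and in G282, 99 (12.9% against 14.4%). G7534 with 47 (6.14% against 3.72%) and G6603 with 45 (5.88% against 5.93%) also had more than G650.

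The shares in D2943 and G650 also rose with the number of probes flagged in D1137. Over sets below 0.5 elsewhere, the mean D2943 share was 0.0110 with no probe flagged in D1137, 0.0578 at 5 of 11, 0.0725 at 6 and 0.182 at 11, the last from 6 sets. In G650 it was 0.00145, 0.0243, 0.0324 and 0.0909 at the same steps. The rise began well below the threshold of the rule. Its upper steps were not particular to D2943 and G650. From 6 to 11 probes, G282 rose from 0.0817 to 0.227, G6603 from 0.0501 to 0.182 and F2045 from 0.0232 to 0.121. From 0 to 5 probes these arrays fell, G282 from 0.0991 to 0.0862, G6603 from 0.0615 to 0.0512 and F2045 from 0.0306 to 0.0250. In F1856 there was no steady rise, with 0.00385 at no probe flagged, 0.0117 at 1, 0.0115 at 6, 0.0186 at 9, 0.0114 at 10 and 0 at 11. In the wild type check it was 0.0749 with none and 0.0638 at 6 of 11.

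**Figure D4:**
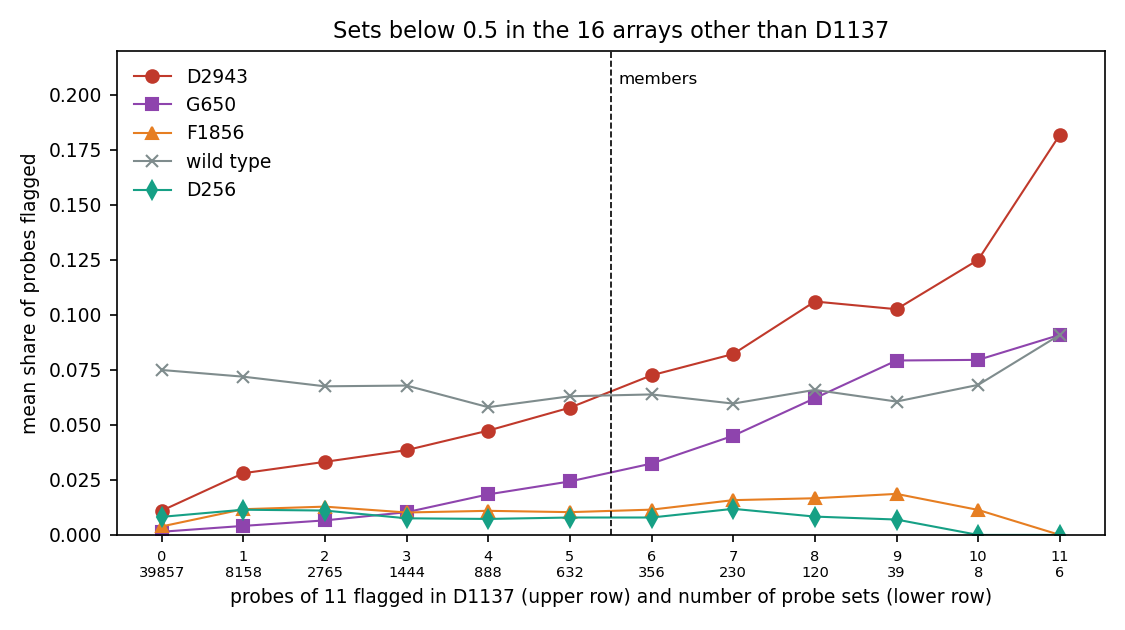
Mean share of probes flagged in D2943, G650, F1856, D256 and the wild type check (vertical axis) over 11-probe sets below 0.5 outside D1137, by the number of probes flagged in D1137 (horizontal axis, with the number of sets under each step). The dashed line marks where members begin. D2943 climbs from 0.0110 to 0.182 and G650 from 0.00145 to 0.0909, while the wild type check stays between 0.0580 and 0.0909, its highest value at the 6 sets of the last step. Arrays not drawn, such as G282 and G6603, are also highest at the last step.

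The ratios in D2943 and G650 stayed well above 1 in the name, pairing and length subsets. In D2943 the ratio of members to background was 4.80 for Os. names and 5.36 for OsAffx names, 4.68 for paired and 5.19 for unpaired sets, and 4.08 for genes under 2000 bp and 4.83 for longer genes. In G650 it was 15.3, 15.2, 17.3, 14.1, 10.8 and 21.7 for the same subsets. In F1856 the ratio was 2.10 for Os. names and 2.63 for OsAffx names, but 1.83 for genes under 2000 bp and 1.83 for the 625 members ending in _at or _a_at. For genes under 2000 bp the ratio was 1.57 in F2045, 1.46 in G9799 and 1.36 in D256, so F1856 did not stand clear of them there. By contrast, sets low only in G6989 had means in D1137 and F1856 that were 0.882 and 1.07 times the background, and 1.27 to 3.48 times in the other 14 arrays. Sets low only in G282 had 0.782 times the background in D1137.

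When a gene had several probe sets, most often only 1 of them was a member. Of the 343 genes, 243 had a single set and 100 had several. Of these 100, 11 had more than 1 member set and 6 had members only, among them RAB21, SAP5 and HAK1, the gene of a high-affinity potassium transporter. LOC4342343 on chromosome 7 had 3 member sets out of 5, with D1137 shares from 0.0909 to 0.545. At the other extreme, 38 genes had a member set and another set at 0 in D1137, such as LOC4330036 (0.909 and 0), LOC4345185 (0.818 and 0), LOC4351716 (0.818 and 0) and SWEET1a (0.727 and 0). JAZ10 lay between, with 0.909 and 0.364.

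The 123 other sets of these genes had a mean D1137 share of 0.187, against 0.0396 for the sets of genes with no member. For genes under 2000 bp the means were 0.256 and 0.0825, and for longer genes 0.156 and 0.0292. A share of 0.4 or more was reached by 20 of the 123 (16.3%), against 1.49% of the sets of genes with no member. At 0 were 44 of the 123 (35.8%), against 76.6% of the sets of genes with no member. Probe sets of 1 gene can overlap in sequence, so they are not separate measurements of it.

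The members were spread over all 12 chromosomes. Among paired sets the percentage of members ranged from 1.01% on chromosome 9 (0.524 to 1.76%) to 2.06% on chromosome 4 (1.48 to 2.80%), and chromosome 3 held the most, 58. Across the chromosomes, the interval of the percentage included the array's 1.58% on each of the 12.

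**Figure D5:**
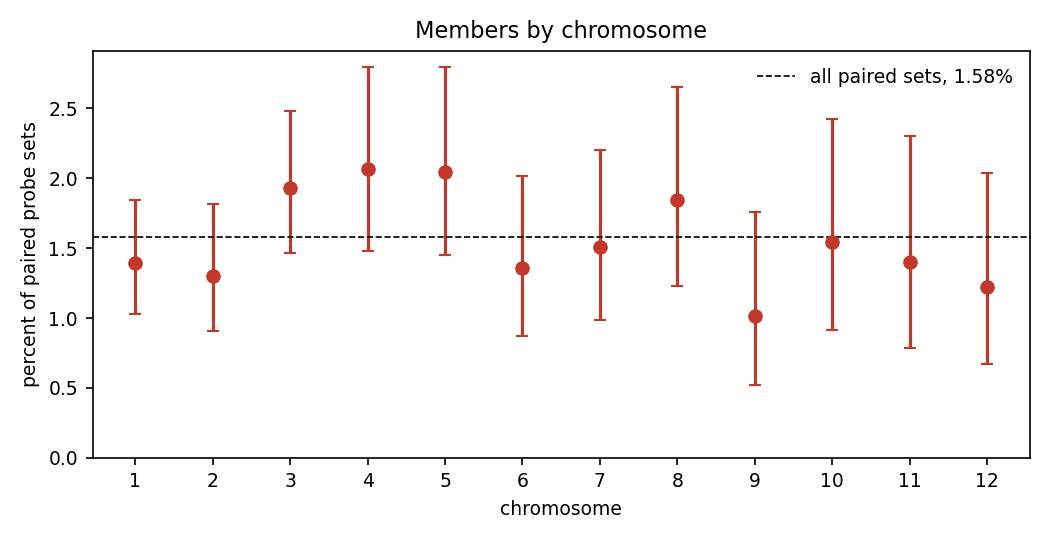
Percentage of paired probe sets that were members (vertical axis) on each chromosome (horizontal axis), with 95% exact Clopper-Pearson intervals. The dashed line is the value over all paired sets, 1.58%, and lies inside each interval, from 1.01% on chromosome 9 to 2.06% on chromosome 4.

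Neighbouring genes were seldom called together. With the median over a gene's sets, 278 nuclear genes (1.55% of those measured) were low only in D1137. Joined across at most 5 other measured genes, 57 of the 278 (20.5%) formed 27 runs, of which 24 held 2 genes and 3 held 3 genes, the longest. There were 67 such runs at a threshold of 0.4 and 8 at 0.6. Only 8 pairs were direct neighbours among measured genes, such as LOC4351100 and LOC4351099 on chromosome 11, both at 0.727, and LOC4345722 and LOC4345723 on chromosome 8, both at 0.636. Of the 53 uncalled genes inside the runs, 37 were at 0 in D1137, and their mean share of 0.0583 was near the 0.0493 of all measured nuclear genes.

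The runs of 3 show this pattern. On chromosome 4, LOC107278299, LOC4336277 and LOC4336278 had 0.545, 0.636 and 0.545, with LOC4336275 at 0 and LOC4336276 at 0.136 between them and genes at 0 on both sides. On chromosome 7, LOC4344035, LOC4344044 and LOC4344051 had 0.545, 0.545 and 0.636, with 9 uncalled genes between them of which 5 were at 0. On chromosome 3, LOC4333617, LOC4333624 and LOC4333627 had 0.545 each, with 6 genes at 0 between them. No run was an unbroken stretch of called genes longer than 2. Of the pairs, LOC4331658 with LOC4331670 on chromosome 3 (0.818 and 0.636) and LOC4338044 with LOC4338047 on chromosome 5 (0.818 and 0.636) had the highest shares.

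Gene lists set by the starts of gene names gave small counts, to be read against 1.92% of all nuclear genes with a member set. None of the 29 genes in the DNA repair list and none of the 41 in the disease and lesion list had one. By the match of names, the first list also took in AtMAP70 genes and CPD2, which is in the cytochrome P450 list too. Its genes had a median length of 5143 bp, with 1 under 2000 bp. The second list had a median of 3148 bp, with 8 under 2000 bp. Of 30 cytochrome P450 genes 1 did (3.33%), AOS4, an allene oxide synthase gene of jasmonate synthesis (0.545 in D1137, with 0.455 in G6989). Of 153 protein kinase and phosphatase genes 3 did (1.96%), the protein phosphatase genes PP2C30 and PP2C51 and the receptor kinase gene SERL2, each at 0.636. PP2C51 had another set at 0 in D1137, and the median over its sets was 0.318. Of 159 transporter genes 4 did (2.52%), SWEET1a at 0.727, the ammonium transporter gene AMT2-1 at 0.636, HAK1 at 0.636 and 0.545, and the vacuolar aquaporin gene TIP3-1 at 0.545. The percentages of the kinase and transporter lists were near that of all genes.

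The transcription factor and chaperone lists held the remaining listed members. Of 267 transcription factor genes 9 had a member set (3.37%). They were the homeobox genes HOX7, HOX8, HOX16, HOX20 and HOX28, the heat shock factor gene HSFC2A, NAC067, and HAP3F and HAP2A, which encode subunits of the CCAAT-binding complex. HOX16, HSFC2A and NAC067 had 0.636 in D1137 and the other 6 had 0.545, and HOX7, at 14104 bp the longest gene with a member, also had 0.364 in D2943. With the median over their sets, HOX16 had 0.273 and HOX20 had 0.409 in D1137, below the 0.5 at which a gene was called. Of 49 genes in the chaperone list 5 had a member set (10.2%). The small heat shock protein genes HSP18.0, HSP23.2 and HSP24.1 had 0.636 and HSP22.3 had 0.545. The fifth was BKI1, which entered through an older name and is not a chaperone. All 5 were under 2000 bp, as were 20 of the 49 genes of that list, and 5 of the 9 transcription factor genes were too.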

How the data were processed

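The authors hybridized genomic DNA, averaged 2 scans of each array, scaled perfect match log2 signals to the wild type average without background correction, and flagged probes by their log2 ratio to wild type with affy in R (no version given). The deposited values are the fraction of a probe set's probes that were flagged. Which log ratio flagged a probe in these values is not stated beside them, and raw signals were not used. With 11 probes a set, 1 probe is the smallest step.

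Probe sets were paired with genes through the platform annotation, and genes were named, ordered and measured in length by the ASM3414082v1 gene table of japonica rice, whose older names served where a gene had only a locus number. The build behind the array was not used, so no coordinates are given. A set was called at 0.5, and a gene with more than 1 set was given their median. Runs allowed 5 other measured genes. Python 3.11.15, numpy 2.4.6, pandas 2.3.3 and scipy 1.17.1 were used, and the steps were tested on simulated data. Intervals are exact Clopper-Pearson. No test was run, since each line had 1 array and the members were chosen by these values.

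The members and lists were chosen with earlier results of these data known. Named genes are the 12 paired members with the highest D1137 share, up to 12 with a gene name, the longest runs, genes with several sets, list members and 6 unpaired members. The gene families, HOX7, the spl1-line comparison and some run and list genes beyond these numbers were named after their values were seen. Alternatives were thresholds of 0.4 and 0.6, centring, subtraction of the wild type check, stricter bounds elsewhere, other run gaps, other set summaries and leaving out arrays. No sequences of probes or genes were used here.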

Additional observations from a re-analysis of the deposited data

How the results depend on the processing

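The threshold set the size of the group more than its make-up. At 0.4 there were 1289 members, 455 genes and 67 runs, mean shares of 0.0665 in D2943 and 0.0327 in G650, and 11.2% and 1.12% of the sets of genes under 1000 bp and of 6000 bp or more. At 0.6 these were 435, 148, 8, 0.101, 0.0594, 4.81% and 0.314%. With the wild type check subtracted, OsAffx names were 47.2%, paired sets 42.8%, the G650 mean 0.0491 and the shortest class 5.09%. With the other arrays below 0.3, they were 48.4%, 42.3%, 0.0316 and 4.71%, and the D2943 mean was 0.0643. At 0 in all other arrays there were 19 members, 84.2% of them OsAffx and 10.5% paired, with D2943 and G650 then 0 by rule. The paired sets were those of LOC4337129 (2041 bp) and SAP5 (763 bp) only, so the median length of 1402 bp lies midway between them. These sets gave 0.0943% of the shortest class and 0% of the longest. With the highest share over a gene's sets there were 45 runs.

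Leaving out each other array in turn gave 765 to 801 members, median lengths of 1745 to 1780 bp, OsAffx shares of 41.4 to 42.7%, paired shares of 46.4 to 47.2%, D2943 means of 0.0836 to 0.0869, G650 means of 0.0440 to 0.0459, 7.26 to 7.63% in the shortest class and 0.606 to 0.719% in the longest. Every other count stayed within 1.5 times of the main one, among them 563 members with the wild type check subtracted, 570 with the other arrays below 0.3, 625 without _s_at and _x_at sets, and 339 genes with the highest share over sets. The share of short genes exceeded that of long genes wherever it was computed. At 0 in all other arrays, though, the shortest class held a set of SAP5 only. No paired analysis was possible because there was a single array of every line. A share rests on about 11 probes of 1 hybridization, in which a missing target and a target changed in sequence cannot be told apart.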

Other observations

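Some gene families among the members were looked at after their values were seen, so their counts are a description, beside 1.92% of all nuclear genes and 5.08% of those under 2000 bp with a member set. Of 13 stress-associated protein genes 3 had a member set, while 8 had a gene share of 0 in D1137. Of 19 small heat shock protein genes, all under 2000 bp, 4 had a member set and 9 had a gene share of 0. HSP16.0 had 0.364, HSP18.8 and HSP18.6 had 0.273 each, and HSP18.0, with a member set at 0.636, had a gene share of 0 over its sets. Of 26 HOX genes 5 had a member set and 12 had a gene share of 0. COPT3 and COPT7 had gene shares of 0.727 and 0.545, and COPT1 and COPT2 had 0, although all 4 copper transporter genes are under 2000 bp. Of 55 PP2C genes 2 had a member set, with a median family length of 4325 bp, and 38 had a gene share of 0. Thus each of these families held both members and genes at 0, which is not particular to them. Of all 17905 genes paired with a set, 13980 had at least 1 set at 0 in D1137, as did 2201 of the 3821 genes under 2000 bp. This is a looser measure than the gene share of 0 used for the families.

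A few members had several probes flagged in D1137, D2943, G650 and F1856 at once, and were picked for that after their values were seen. OsAffx.24212.1.S1_x_at had 0.545 in D1137, 0.364 in D2943, 0.455 in G650 and 0.273 in F1856, with at most 0.0909 in the other 13 arrays. OsAffx.31887.1.A1_at had 0.727, 0.273, 0.455 and 0.273, again with at most 0.0909 in the others. Os.12663.1.S1_x_at, paired with LOC4348697 on chromosome 10, had 0.545, 0.182, 0.455 and 0.182 and was at 0 in the other 13. Others of the 12 members with the highest summed share in D2943, G650 and F1856 were flagged widely. Os.53133.1.S1_at had 0.818 in D1137, 0.364 in both D2943 and G650 and 0.0909 in F1856, but also 0.455 in G6989, 0.364 in G282 and 0.273 in G7534. Os.11843.1.S1_at, paired with LOC4336759 on chromosome 4, had the same shares in the first 4 arrays, with 0.364 in G6989 and 0.273 in G7534.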
